A study of Mus musculus with 8 samples.

Results

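Regions of chromatin that opened between genes after acute chromate treatment are described here. FAIRE (formaldehyde-assisted isolation of regulatory elements) separates DNA with few crosslinked nucleosomes from the rest of the chromatin by phenol/chloroform extraction, and FAIRE-seq places the DNA so recovered on the genome. The material was Hepa-1c1c7 (Hepa-1), a mouse hepatoma line obtained from a repository. For the acute regimen cells received Cr(VI) as CrK2O4 at 25 µM and were taken after 90 minutes, and the control cells received none. A chronic regimen of 0.5 µM Cr(VI), renewed every day over 20 passages, had control cells carried through as many passages without chromium. Each of these 4 FAIRE conditions was 1 library, and RNA-seq counts covered 2 libraries of the acute regimen and 2 controls whose labels do not name a regimen. The authors called peaks with MACS in each treated library against its own control, so a listed peak is a region with more reads in treated than in control cells.

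Of the 2945 peaks of the acute list, 1146 were intergenic (38.9%, 95% Wilson interval 37.2% to 40.7%). They were chosen by position from a list that was itself selected on the difference between the treated and the control library. The centre of each lay more than 1000 bp from every RefSeq transcription start site (TSS) of GRCm38/mm10 and outside the span of every RefSeq gene. The other peaks were 1509 inside genes and 290 within 1000 bp of a TSS, and the chronic list held 367 intergenic peaks among 860. Sequence between genes by the same rule made up 50.7% of the assembled chromosomes, or 1381 of 2726 Mb. All the scores below come from the comparison that selected the peaks and serve as descriptions. Reads per peak are not given, which leaves the depth of each peak unknown, and no opening has a replicate check because each condition had 1 library. Wilson intervals cover counting error only.

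Distal regulatory elements lie between genes as well as in introns. Where a transcription factor displaces nucleosomes, the DNA beside its binding sequence becomes accessible, which is the property FAIRE measures. AP-1 is a dimer of FOS and JUN family proteins that is produced in response to growth factors, cytokines and stress and binds TGAGTCA, whose reverse strand reads TGACTCA. NRF2 and BACH proteins pair with small MAF proteins and recognise an extended form of that sequence. CTCF is a zinc finger protein that binds a longer sequence and, with the cohesin ring, anchors chromatin loops and bounds domains. An exact match to such letters describes the DNA of a peak and does not show that a factor was bound.

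The intergenic peaks with the highest scores among those that held the AP-1 sequence, and in which at least 90% of the 50 bp stretches occur once in the genome, show what these regions look like. Their central 100 bp are given 5′ to 3′ on the forward strand of GRCm38/mm10, with the gene of the nearest TSS in parentheses and the AP-1 sequence in capitals.

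chr4:54778210-54778309 (Gm34133): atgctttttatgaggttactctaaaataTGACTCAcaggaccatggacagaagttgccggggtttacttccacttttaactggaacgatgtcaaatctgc
chr16:87452725-87452824 (Usp16): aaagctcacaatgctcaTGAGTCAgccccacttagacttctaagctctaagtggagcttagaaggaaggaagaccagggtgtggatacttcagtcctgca
chr8:61475572-61475671 (Cbr4): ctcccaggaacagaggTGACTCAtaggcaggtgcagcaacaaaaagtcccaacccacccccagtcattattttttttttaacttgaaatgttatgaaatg
chr5:86679878-86679977 (Tmprss11b): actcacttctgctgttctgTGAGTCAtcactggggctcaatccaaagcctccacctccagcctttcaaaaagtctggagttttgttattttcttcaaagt
chr9:11709785-11709884 (Gm32710): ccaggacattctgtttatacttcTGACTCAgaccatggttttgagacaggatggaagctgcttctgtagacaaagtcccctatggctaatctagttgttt

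The first of these was 53 bp wide with a score of 109 and lay 115679 bp from the nearest TSS, that of Gm34133. The second was 227 bp wide with a score of 106, 2210 bp from the TSS of Usp16, which encodes a deubiquitinase of histone H2A. The peaks near Cbr4 (212 bp wide, score 99.9) and Tmprss11b (60 bp wide, score 89.7) lay 12112 and 3630 bp from a TSS. The last of them lay 805048 bp from any TSS. The AP-1 sequence thus stood in narrow and in wide peaks, and both close to genes and deep between them.

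The corresponding 5 intergenic peaks with the CTCF core sequence are given in the same way. The core searched was CCANNAGNNGGC, in which N is any base, on both strands, and the matched letters are in capitals.

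chr3:51373703-51373802 (Gm5103): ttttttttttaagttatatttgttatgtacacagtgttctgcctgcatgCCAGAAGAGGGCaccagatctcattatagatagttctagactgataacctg
chr10:31299324-31299423 (Hddc2): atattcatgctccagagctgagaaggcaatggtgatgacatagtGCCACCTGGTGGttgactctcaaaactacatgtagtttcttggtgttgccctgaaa
chr10:110794639-110794738 (Gm23698): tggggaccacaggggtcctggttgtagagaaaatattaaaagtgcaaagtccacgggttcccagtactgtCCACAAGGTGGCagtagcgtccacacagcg
chr3:90644325-90644424 (S100a7a): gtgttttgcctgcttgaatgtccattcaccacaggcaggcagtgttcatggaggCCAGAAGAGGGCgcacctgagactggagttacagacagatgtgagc
chr2:83337576-83337675 (Zc3h15): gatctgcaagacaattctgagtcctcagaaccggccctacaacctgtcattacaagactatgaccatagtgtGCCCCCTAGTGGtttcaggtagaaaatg

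The peaks nearest to Gm5103 and Hddc2 had scores of 139, the highest of all 1146 intergenic peaks, and 125, tied with the peak near Susd6, and were only 49 and 58 bp wide. The peak near Gm5103 was soft-masked as a repeat over its whole length. It is too narrow to hold a 50 bp stretch, but each such stretch of the 100 bp around its centre occurs once in the genome. The peak near Gm23698 (140 bp wide, score 78.7) lay 1484 bp from a TSS. The peak near S100a7a (161 bp wide, score 72.8) belonged to the densest group of intergenic peaks described below. The last, 112 bp wide with a score of 70.4, lay 306952 bp from the TSS of Zc3h15.

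A single intergenic peak held both sequences in its central 100 bp. It lay at chr13:4129261-4129377 with a score of 57.6, 21327 bp from the TSS of Akr1c18, which encodes a hydroxysteroid dehydrogenase that inactivates progesterone. In its sequence the CTCF core comes first and the AP-1 sequence second.

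chr13:4129269-4129368 (Akr1c18): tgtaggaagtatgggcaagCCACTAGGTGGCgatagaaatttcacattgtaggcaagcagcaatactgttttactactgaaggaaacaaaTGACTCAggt

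The AP-1 sequence was present in the central 100 bp of 109 of the 1146 intergenic peaks (9.51%, Wilson interval 7.95% to 11.3%). Windows of 100 bp centred 500 bp to either side of the same peaks held it in 36 of 2292 cases (1.57%, interval 1.14% to 2.17%). Of all 13806346 windows of 100 bp between genes 1.46% held it, and 1.62% once the windows were weighted to the GC content of the peaks. The share in intergenic peaks was therefore 6.50 times that of all windows and 5.86 times that of windows of equal GC content. The GC content of the central 100 bp had a median of 49% in the peaks and 40% in the windows.

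Intergenic peaks resembled the peaks inside genes in this respect. There 151 of 1509 peaks held the AP-1 sequence (10%, interval 8.59% to 11.6%), and near a TSS 18 of 290 did (6.21%, interval 3.96% to 9.60%). In the 367 intergenic peaks of the chronic regimen the share was 8.99% (33 peaks, interval 6.47% to 12.4%). All of these intervals overlap that of the acute intergenic peaks, and no test was made between the classes. Counted over the whole peak in place of the central 100 bp, 135 acute intergenic peaks held the sequence (11.8%).

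The CTCF core was present in 46 intergenic peaks (4.01%, interval 3.02% to 5.31%), against 0.654% of the flanking windows (15 of 2292, interval 0.397% to 1.08%), 0.4% of all windows and 0.642% of windows of equal GC content. The ratio to windows of equal GC content was 6.25. A more restricted CTCF consensus, searched by name with ambiguous letters at some positions, was found in 25 intergenic peaks (2.18%) and in 0.0718% of windows of equal GC content, a ratio of 30.4. The core was found in 83 peaks inside genes (5.5%, interval 4.46% to 6.77%), in 13 near a TSS (4.48%, interval 2.64% to 7.52%), and in 6 intergenic peaks of the chronic regimen (1.63%, interval 0.751% to 3.52%). Together 154 of the 1146 acute intergenic peaks (13.4%) held at least 1 of these sequences, and 992 held neither.

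**Figure D1:**
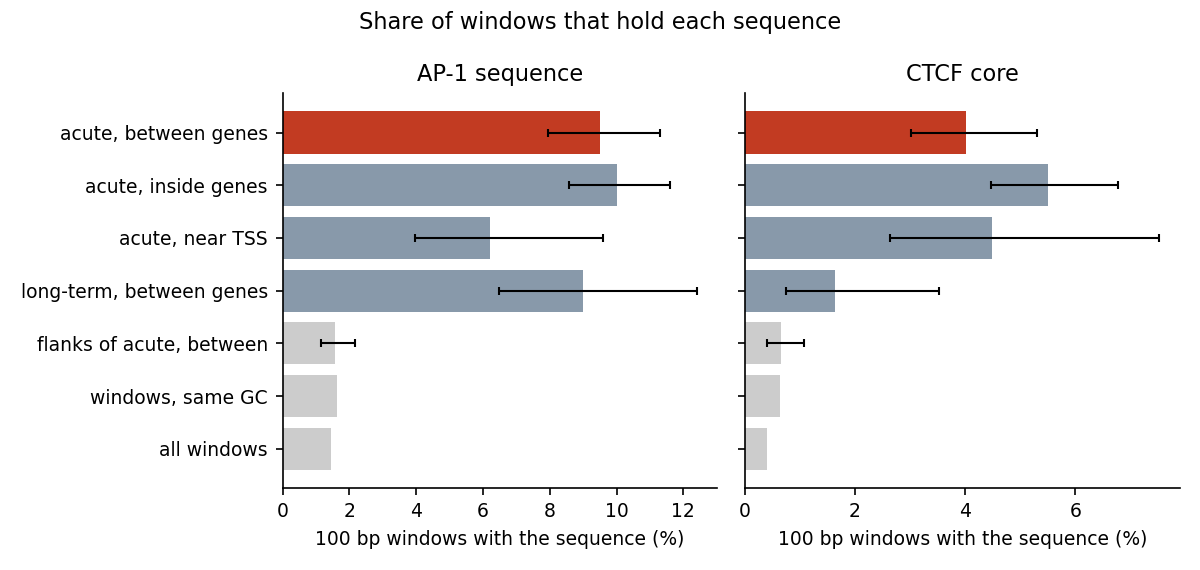
Share of 100 bp windows, in percent, that hold the AP-1 sequence (left) and the CTCF core (right) in acute peaks between genes, inside genes and near a TSS, in intergenic peaks of the chronic regimen, in the flanks of the acute intergenic peaks and in all windows between genes. Error bars are 95% Wilson intervals, which all windows do not need; the acute intergenic peaks reach 9.51% and 4.01%, their flanks 1.57% and 0.654%.

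Both sequences were concentrated at the middle of the peaks. Within 50 bp of the centre of an intergenic peak there were 121 AP-1 sites, counted by their middle base, or 106 per 100 bp and 1000 peaks. More than 200 bp away the density ranged from 6.98 to 31.4 over 12 bins of 50 bp, with a mean of 18.6. For the CTCF core the central density was 45.4 and the distant mean 5.67. In peaks inside genes the central densities were 111 for AP-1 and 57.7 for the CTCF core. In 13 intergenic peaks at least 2 AP-1 sites lay within 100 bp of the centre.

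**Figure D2:**
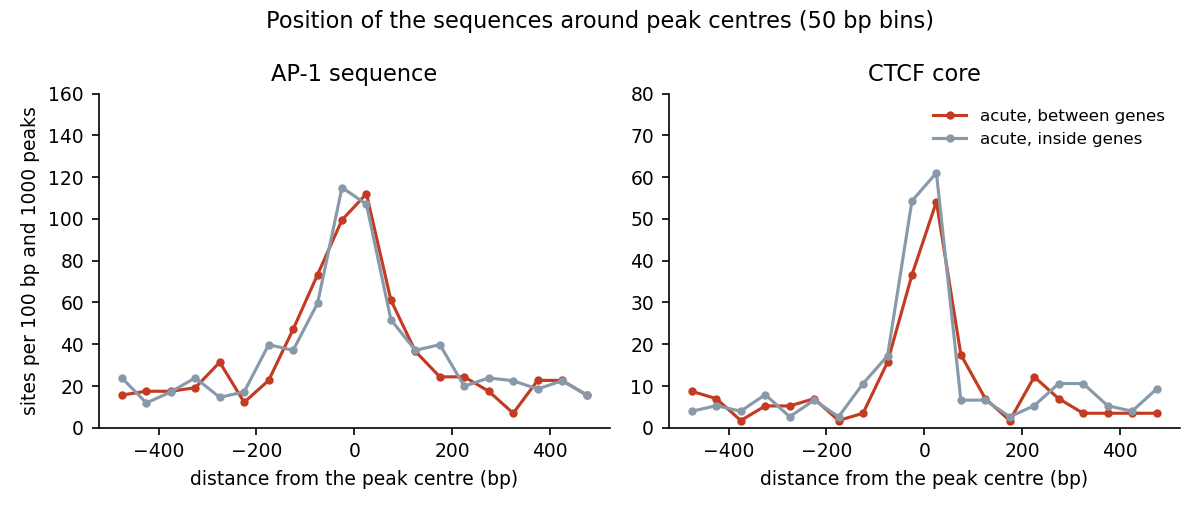
Number of AP-1 sequences (left) and CTCF cores (right) per 100 bp and 1000 peaks, in bins of 50 bp by distance in bp from the peak centre, for acute peaks between genes (red) and inside genes (grey). Both lines rise at the centre, to 106 and 45.4 within 50 bp of it in the peaks between genes, and stay low beyond 200 bp, where their means are 18.6 and 5.67.

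The bases next to the AP-1 sequence were read on the strand that carries TGAGTCA. An A followed it at 9 of the 113 sites in the central 100 bp of intergenic peaks (7.96%) and at 20.1% of the sites in all windows, and a C or T followed it at 38 and 39 sites (33.6% and 34.5%), against 22.9% and 27.7% in windows. A T preceded it at 15 sites (13.3%), against 23.7%, and a C at 32 sites (28.3%), against 31.7%. An A or G preceded it at 36 and 30 sites (31.9% and 26.5%), against 24.9% and 19.8%. The form extended by GC before the sequence, GCTGAGTCA, which fits NRF2 and BACH2, was found in 11 intergenic peaks (0.960%, interval 0.537% to 1.71%), and in 0.138% of windows of equal GC content, a ratio of 6.97. For the AP-1 sequence itself that ratio was 5.86. The related CRE sequence TGACGTCA, which binds CREB and ATF proteins, was found in 0 of 1146 intergenic peaks, which allows a share of up to 0.262% when 3 counts are taken as the limit, and in 0.0813% of windows of equal GC content. The intergenic peak with the highest score among those that held the extended form, and had at least 90% unique stretches, lay 21717 bp from Zbtb16, a gene for a zinc finger repressor, and its central 100 bp are given with the AP-1 letters in capitals.

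chr9:48857892-48857991 (Zbtb16): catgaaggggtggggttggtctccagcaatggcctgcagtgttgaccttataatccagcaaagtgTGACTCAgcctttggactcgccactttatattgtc

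A search of all words of 7 letters, which uses no knowledge of factors, also put the AP-1 sequence first. Of the 8192 words, each counted with its reverse complement, 2897 occurred in at least 15 intergenic peaks. Ranked by the ratio to windows of equal GC content, TGACTCA with TGAGTCA came first at 5.86 times. Words that overlap the AP-1 sequence by 6 letters were also high, among them ATGACTC at 3.69 times (47 peaks) and GAGTCAC at 3.62 times (54 peaks). CCACTAG, at 2.64 times (26 peaks), lies within the CTCF core. CGCCCTC at 3.86 times (16 peaks), GCGCCAC at 3.43 times (18 peaks) and CGCCACC at 3.16 times (21 peaks) overlap an end of the core and run past it. The words AGGCGGG at 3.37 times (15 peaks) and AGCCGGG at 2.68 times (15 peaks) lie within neither the AP-1 sequence nor the CTCF core. The word TGAATCA, which differs from the AP-1 sequence in its centre, was at 2.62 times (34 peaks), GATAAGA, which GATA factors bind, at 2.40 times (25 peaks), and ACTTCCT, which contains the core that ETS factors bind, at 2.18 times (66 peaks). Without the weighting for GC content the words GCGCCAC and CGCCCTC came first at 7.85 and 7.66 times, and TGACTCA stood at rank 5 with 6.50 times.

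Sequences of other factor families stood closer to their share in windows. TGTTTAC, which the liver factors of the FOXA family bind, was found in 23 intergenic peaks (2.01%, interval 1.34% to 2.99%), 1.84 times the share of windows of equal GC content. The C/EBP sequence TTGCNNAA was at 1.34 times (4.97%), the TEAD sequence GGAATG at 1.18 times (7.77%), the RUNX sequence TGTGGT at 0.999 times (7.33%), and the HNF4 sequence CAAAGTCC at 1.10 times in 5 peaks (0.436%). The antioxidant element TGACNNNGC was at 1.55 times (4.97%), the core GCGTG of the aryl hydrocarbon receptor element at 1.14 times (5.41%) and the p53 half-site, searched by name, at 1.10 times (3.66%). The antioxidant pattern can overlap an AP-1 match. GGGCGG, the GC box bound by SP1, was found in 2.01% of intergenic peaks (interval 1.34% to 2.99%), in 1.46% of windows of equal GC content, a ratio of 1.38, and in 11.7% of peaks near a TSS (interval 8.51% to 15.9%), and CCGGAAG, a promoter ETS site, in 0.349% and 3.45%. CCAAT, which NF-Y binds, was found in 11.1% of intergenic peaks (interval 9.39% to 13.0%) and in 11.4% of peaks near a TSS (interval 8.22% to 15.6%), and in 16.9% of windows matched in GC content to the intergenic peaks. All matches were exact and counted on both strands.

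Most intergenic peaks were short. Their widths ran from 49 to 1173 bp with a median of 116 bp and quartiles of 95 and 139 bp, and 338 (29.5%) were narrower than 100 bp, while 18 were wider than 300 bp. The intergenic peaks of the chronic regimen were 226 to 6365 bp wide with a median of 480.0 bp, so all of them exceeded 100 bp. The scores of the acute intergenic peaks spanned 50 to 139, had their median at 57.2, and 17 peaks reached 100. Of these 17, 15 were narrower than 70 bp. The 115 intergenic peaks under 70 bp (10%) had a median score of 71.2, and the others 56.9. Scores of 100 or more therefore belonged mostly to peaks under 70 bp, whereas the 162 peaks with scores of 70 or more had a median width of 93 bp.

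**Figure D3:**
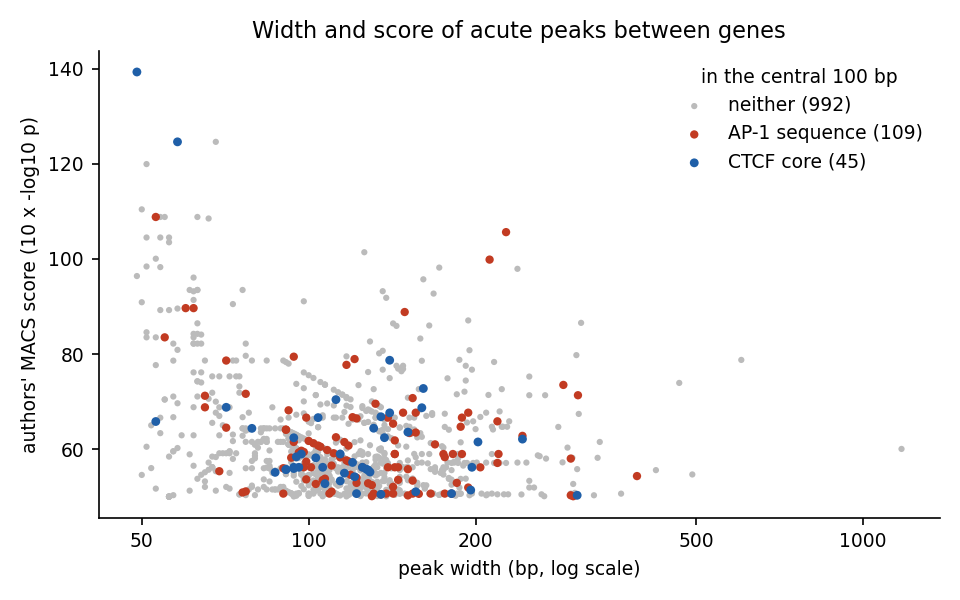
Width in bp (log scale) and the authors' MACS score, which is 10 times −log10 of the MACS p-value, of each of the 1146 acute intergenic peaks. Points are coloured by the sequence in the central 100 bp, the peak that holds both being drawn with AP-1. Most scores of 100 or more lie at widths under 70 bp. AP-1 and CTCF peaks occur in every width class and score class, but none of the 5 widest peaks holds either sequence.

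By width, the share with the AP-1 sequence was 7.06% of 170 peaks under 80 bp (interval 4.08% to 11.9%), 7.84% of 319 peaks of 80 to under 110 bp (interval 5.36% to 11.3%), 8.64% of 428 peaks of 110 to under 150 bp (interval 6.34% to 11.7%), 15.3% of 190 peaks of 150 to under 250 bp (interval 10.8% to 21.1%) and 15.4% of 39 wider peaks (interval 7.25% to 29.7%). All of these were measured in the same central 100 bp, and the intervals overlap. By score it was 8.99% in the 367 peaks under 55, 8.47% in 354 peaks of 55 to 60, 11.4% in 263 peaks of 60 to 70 and 9.88% in 162 peaks of 70 or more, with intervals that also overlap. The narrow peaks were also more often in repeats: the central 100 bp were over 50% soft-masked in 33.5% of peaks under 80 bp and in 7.37% of peaks of 150 to under 250 bp. Neither a trend with width nor the part of repeats in it was tested. The CTCF core was found in 2.94%, 4.08%, 4.21%, 4.74% and 2.56% of the 5 width classes from narrow to wide, with overlapping intervals and 1 of 39 peaks in the widest.

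Repeated sequence was less common in intergenic peaks than between genes at large, and more common than in peaks inside genes. The central 100 bp were over 50% soft-masked in 245 intergenic peaks (21.4%, interval 19.1% to 23.8%), in 40.2% of all windows between genes, in 15.5% of peaks inside genes (interval 13.8% to 17.4%) and in 37.6% of chronic intergenic peaks (interval 32.8% to 42.7%). In 1026 acute intergenic peaks (89.5%) every 50 bp stretch occurs once in the genome. In 49 peaks (4.28%, interval 3.25% to 5.61%) fewer than 50% of the stretches were unique, against 2.25% of peaks inside genes (interval 1.62% to 3.13%) and 12% of chronic intergenic peaks (interval 9.05% to 15.7%). Reads from repeated stretches cannot be placed with certainty. Among the 106 intergenic peaks with under 90% unique stretches, 1 held the AP-1 sequence (0.943%, interval 0.167% to 5.15%), and among the 1040 others 108 did (10.4%, interval 8.67% to 12.4%).

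The widest intergenic peak, 1173 bp at chr2:98666171-98667343, had a score of 60, was 80.1% soft-masked, and only 64.7% of its stretches were unique, with up to 93 copies of a stretch in the genome. The next were unique throughout. A peak of 603 bp (score 78.8) lay 18588 bp from the TSS of Snx9, which encodes a sorting nexin that bends membranes during endocytosis, and peaks of 492, 466 and 423 bp lay 8850 bp from Gm36257, 1381 bp from Itga3 and 9761 bp from Ffar4. None of these 5 held the AP-1 sequence or the CTCF core in its central 100 bp. Itga3 encodes an integrin of epithelial cells that binds laminin, and Ffar4 a receptor for long-chain fatty acids. Among the peaks with the highest scores, those after the first 2 were 68, 51 and 50 bp wide with scores of 125, 120.0 and 110.4, lay 7469 bp from Susd6, 7214 bp from Map2 and 27127 bp from Gm52771, and held neither sequence.

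Intergenic peaks lay closer to genes than the sequence between genes does on the whole. Their median distance to the nearest TSS was 21499 bp, and that of all windows between genes 47732 bp. Distances of 1000 to 5000 bp held 152 peaks (13.3%, interval 11.4% to 15.4%) and 7.60% of the windows, and 5000 to 20000 bp held 399 peaks (34.8%, interval 32.1% to 37.6%) and 21.4% of the windows. Beyond 100000 bp there were 153 peaks (13.4%, interval 11.5% to 15.4%) and 31.2% of the windows. The farthest peak was 1172850 bp from a TSS. By the length of the stretch between genes, 530 peaks (46.2%) lay in stretches of up to 50000 bp, which hold 26.4% of the windows, and 185 peaks (16.1%) in stretches of 200000 bp to 1000000 bp, which hold 35.7%.

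**Figure D4:**
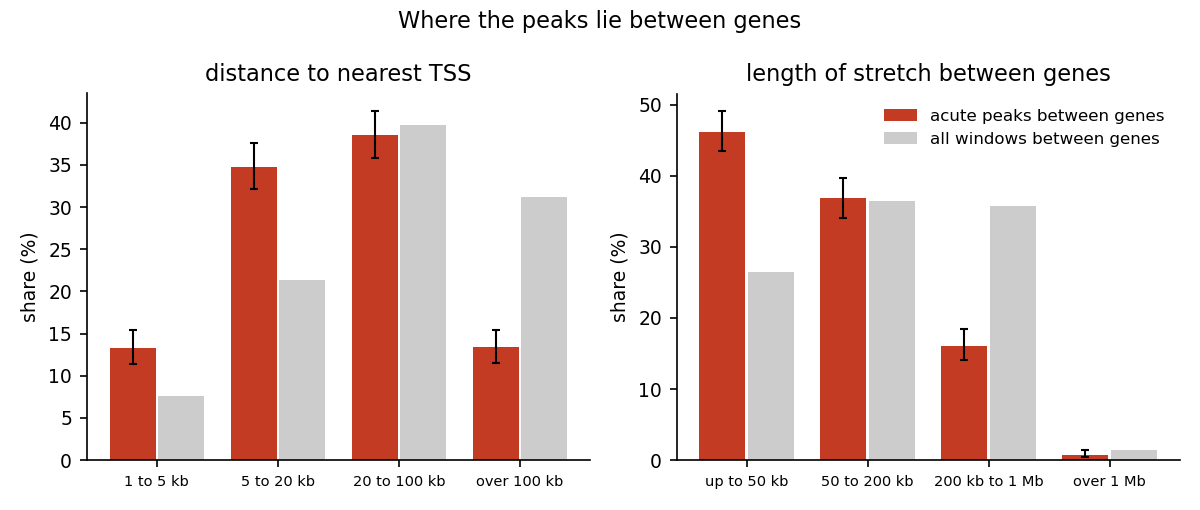
Share in percent of the 1146 acute intergenic peaks (red, with 95% Wilson intervals) and of all 100 bp windows between genes (grey) by distance to the nearest TSS (left) and by the length of the stretch between neighbouring genes (right). The peaks exceed the windows at 1 to 20 kb from a TSS and in stretches of up to 50 kb, and fall below them beyond 100 kb.

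The AP-1 share changed little with distance: it was 12.5% at 1000 to 5000 bp (interval 8.15% to 18.7%), 9.77% at 5000 to 20000 bp, 8.37% at 20000 to 100000 bp and 9.15% beyond (interval 5.53% to 14.8%). The CTCF core was found in 6.58% of the peaks at 1000 to 5000 bp (interval 3.61% to 11.7%) and in 1.96% of those beyond 100000 bp (3 of 153, interval 0.669% to 5.61%). In stretches of up to 50000 bp it was found in 31 of 530 peaks (5.85%, interval 4.15% to 8.18%), and in stretches of 50000 to 200000 bp in 10 of 422 (2.37%, interval 1.29% to 4.31%). GC content also differed, with medians of 51% and 45% in the nearest and the farthest distance class, and its part was not tested.

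At the limit of 1000 bp the intergenic peaks closest to a TSS were 1027 bp from Olfr1465 (score 50.7), 1032 bp from Gm46328 (score 53.1) and 1041 bp from Gm20257 (score 50.9). Just inside the limit, and so not counted, were peaks at 978 bp from Gm1096 (score 55), 930 bp from Lypd11 (score 58.2) and 906 bp from Aig1 (score 50.6). In all, 72 acute peaks lay outside genes but within 1000 bp of a TSS. With curated RefSeq transcripts alone the rule gave 1344 intergenic peaks, and 1031 of the 1146 also lay outside every gene of GENCODE.

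Per Mb of sequence between genes there were 0.830 intergenic peaks over all chromosomes. The density ran from 0.456 per Mb on chromosome 14 (28 peaks) to 1.42 on chromosome 11 (74 peaks) among the autosomes. Chromosome X had 18 peaks, or 0.165 per Mb, and chromosome Y 1 peak in 84.5 Mb. The number of copies of each chromosome in this line was not measured here. The peaks were spread out, with a median of 590913 bp to the next intergenic peak, and 42 (3.66%) had another within 10000 bp. A single group of 3 was spaced by no more than 20000 bp, on chromosome 3 between S100a6 and S100a7a, genes for small calcium-binding proteins. Its peaks at chr3:90624257-90624376, chr3:90639077-90639216 and chr3:90644295-90644455 had scores of 66.2, 50.6 and 72.8, and the last is the CTCF core peak shown above. S100a6 had normalised read counts of 709 and 1086 CPM (counts per 1000000 counts, TMM-normalized) in treated and 934 and 988 in control libraries, which overlap (edgeR, adjusted p = 0.818, log2 fold change −0.098 ± 0.26 standard error).

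Of 1019 enhancers annotated by RefSeq on this build, wherever they lie, 1 overlapped an intergenic peak, and 1 further peak overlapped another annotated regulatory element. The first peak, at chr13:42258622-42258749 with a score of 52.8, lay within the VISTA enhancer mm235 at chr13:42258101-42259051, 42790 bp from the TSS of Edn1, which encodes the vasoconstrictor endothelin-1. The second, at chr2:133550302-133550441 with a score of 74.9, lay within the 5′ regulatory region of Bmp2, 1787 bp from its TSS. Bmp2, named here after its values were seen, encodes a bone morphogenetic protein and had 2 and 1 counts in treated and 0 and 0 in control libraries, too few to test. Neither peak held the AP-1 sequence or the CTCF core in its central 100 bp, and both are given on the forward strand.

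chr13:42258636-42258735 (Edn1): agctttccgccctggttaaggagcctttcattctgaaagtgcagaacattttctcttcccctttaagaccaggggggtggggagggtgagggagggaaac
chr2:133550322-133550421 (Bmp2): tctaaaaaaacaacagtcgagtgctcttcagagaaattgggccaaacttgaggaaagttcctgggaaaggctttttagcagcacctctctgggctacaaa

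Few intergenic peaks recurred under the chronic regimen. Of the 1146, 8 shared at least 1 bp with a chronic peak (0.698%, interval 0.354% to 1.37%), against 3 of 1509 peaks inside genes (0.199%, interval 0.0676% to 0.583%) and 0 of 290 near a TSS. All 8 lay whole within the wider chronic peak, and that chronic peak was intergenic in each case. In 7 of the 8 every 50 bp stretch was unique, and the other was the widest peak on chromosome 2. Of the 7, 3 held the AP-1 sequence, and their central 100 bp are given with that sequence in capitals.

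chr10:95662003-95662102 (Gm33336): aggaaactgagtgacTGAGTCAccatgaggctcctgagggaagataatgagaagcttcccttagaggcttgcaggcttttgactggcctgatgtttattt
chr7:58443421-58443520 (n-TEttc7): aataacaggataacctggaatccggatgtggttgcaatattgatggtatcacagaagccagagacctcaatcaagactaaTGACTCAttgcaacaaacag
chrX:71573299-71573398 (Hmgb3): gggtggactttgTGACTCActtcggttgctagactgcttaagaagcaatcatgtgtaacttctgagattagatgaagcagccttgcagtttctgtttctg

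The first of them, 243 bp wide with an acute score of 62.8 and a chronic score of 52.8, lay 29809 bp from Gm33336. The second, 99 bp wide with scores of 57.4 and 77.0, lay 44156 bp from the transfer RNA gene n-TEttc7. The last, 128 bp wide with scores of 52.8 and 76.3, lay 17359 bp from Hmgb3. The unique pairs without the sequence lay 10627 bp from Tlr5 (acute score 71.5, chronic score 63.7), 3156 bp from Mppe1 (57.1 and 58.6), 24317 bp from Gm24839 (82.6 and 55.6) and 31660 bp from Cfap300 (59.6 and 51.8). The scores of the lists come from different libraries and are given side by side only.

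RNA-seq is independent of the rule that chose the peaks. It was read for the gene of the count table whose TSS was nearest to each peak, here called the nearest gene. Annotated genes absent from the count table were passed over, so some peaks lie nearer to another TSS. The peaks read for Arid1b, Eps8, Arrdc4 and Itga1 lie 6995, 14952, 21013 and 71839 bp from Gm34507, Gm38915, Gm34612 and Gm25985. Within 100000 bp, 813 intergenic peaks had such a gene in the count table, 769 genes in all, and 484 of them had enough counts to be tested. In bulk RNA a change in the number of cells of a kind and a change in RNA per cell cannot be told apart. The libraries held 32319676 to 37696116 counts. Nothing states that the 2 libraries of a group came from separate cultures, so the p-values may measure technical spread only. Of the hepatocyte markers, Alb was high in all libraries (3666 and 3547 CPM in treated, 904 and 947 in control), whereas Apoa1 had 0 to 9 counts and Hnf4a 8 to 15. Of 9 such markers, summing to 7446 and 8720 CPM in treated and 4222 and 4359 in control libraries, 8 were tested and 2 rose (Alb and Ttr). Of all 13619 genes tested in edgeR, 1.78% were called higher. Of 7 markers of blood, endothelial and fibroblast cells, summing to 236 and 366 CPM in treated and 204 and 208 in control libraries, only 2 were tested (Pecam1 and Col1a1). Cd3e and Cdh5 were at 0, Ptprc, Adgre1 and Col1a2 had at most 5 counts, and Pecam1 rose, from 0.487 to 2.01 CPM on average. Without control replicate 1 or control replicate 2 the calls of Alb, Ttr and Pecam1 were lost, with log2 fold changes of 1.91 and 1.98, 2.47 and 2.42, and 2.02 and 2.01. Col1a1 made up most of the sum of the latter list, at 203 to 364 CPM. The part of any of these in the results below was not tested.

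Among the 484 tested genes nearest to an intergenic peak, 38 differed between treated and control cells in edgeR's quasi-likelihood test (7.85%, Wilson interval 5.77% to 10.6%), where 4.63% of all 13619 tested genes did. Of the 38, 11 were higher (2.27% of those tested, background 1.78%) and 27 lower (5.58%, background 2.85%). The excess of lower calls was not seen with DESeq2, which was run on 654 nearest genes with any count and called 45 higher and 44 lower. These were 13.6% of the 654, where DESeq2 called 10.6% of all 18864 genes with any count. Some of those genes, such as Batf3, got no adjusted p from DESeq2. The DESeq2 shares are therefore not directly comparable with edgeR's shares of filtered genes. In edgeR the median log2 fold change over the 484 genes was −0.016 and that over all tested genes −0.0047. For genes nearest to peaks inside genes the share was 6.79% of 913 (interval 5.33% to 8.61%), and for those nearest to peaks near a TSS 6.14% of 228 (interval 3.69% to 10%). Genes are not independent replicates, and no test was made between these shares. The count rested on the libraries used: it was 411 without treated replicate 1 and 350 without treated replicate 2, where 77.6% and 67.2% of all tested genes were called, and 17 and 18 without control replicates 1 and 2, where 2.07% and 2.02% were. In each of these fits the share near intergenic peaks was above that of all genes (82.2%, 71.4%, 3.37% and 3.56%).

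By the sequence in the peak, 10 of 62 tested genes nearest to an intergenic peak with the AP-1 sequence differed (16.1%, interval 9% to 27.2%), 3 of them higher and 7 lower, beside the background of 4.63%. For the CTCF core it was 2 of 27 (7.41%, interval 2.06% to 23.4%), both lower. The genes nearest to AP-1 peaks also had a somewhat higher level, with a median of 5.30 log2 CPM against 5.16 for all 484 and 4.69 for all tested genes, and the part of level was not tested.

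Among called genes whose mean log2 CPM reached 2, the 6 largest rises near an intergenic peak had adjusted p-values from 0.0282 to 0.0459 in edgeR's test. Tnr, which encodes the matrix protein tenascin-R, had 8.98 and 7.14 CPM in treated and 0.403 and 0.281 in control libraries, a log2 fold change of 4.55 (standard error 0.31). Enpp2, which encodes autotaxin, the enzyme that makes lysophosphatidic acid, had 265 and 203 CPM in treated and 36.9 and 38.3 in control libraries, a change of 2.64 (0.17). Arrdc4, an arrestin-related gene, had 43.9 and 52.6 against 10.9 and 9.72 CPM, a change of 2.22 (0.16). In all of these the treated libraries stood far above both controls. Edn1 had 12.4 and 12.6 against 3.57 and 3.86 CPM, a change of 1.75 (0.17). Entpd2, which encodes an enzyme that hydrolyses extracellular ATP, had 12.8 and 12.5 against 4.60 and 4.45 CPM, a change of 1.48 (0.17). Itgb4, the integrin β4 of hemidesmosomes, had 17.8 and 14.7 against 6.47 and 7.21 CPM, a change of 1.25 (0.19). The groups did not overlap for these either, but the calls of Edn1, Entpd2 and Itgb4 were lost without control replicate 1 and without control replicate 2, and those of Entpd2 and Itgb4 with library size as the only normalization (1.37 and 1.14). With a library left out the log2 fold change stayed between 1.67 and 1.79 for Edn1, 1.44 and 1.5 for Entpd2, and 1.11 and 1.37 for Itgb4.

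The peaks beside these genes differed in kind. The peak nearest to Tnr lay at chr1:159440929-159441005, 82762 bp from the TSS, with a score of 71.6, and that of Itgb4 at chr11:115970475-115970550, 4212 bp from the TSS, with a score of 50.9. Both held the AP-1 sequence. The peaks nearest to Enpp2 (chr15:54836038-54836258, score 67.9), Arrdc4 (chr7:68771272-68771345, score 59.1) and Entpd2 (chr2:25384701-25384801, score 65.5) lay 44390, 22071 and 11123 bp from the TSS and held neither sequence. Edn1 had another intergenic peak, 54310 bp from its TSS and with a score of 63, beside the one in the annotated enhancer. Other annotated genes overlap Tnr and Itgb4, and the authors' counting may have shared reads between them.

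The 6 largest falls above the same level had adjusted p-values from 0.0282 to 0.0419 in edgeR's test. Of the called genes below that level, Tmprss11b (−5.45), Dynap (−3.79), Cyp3a13 (−2.87), Tiam1 (−2.82) and Ptprr (−2.53) had larger fitted falls than the third of those given here. The value of Tmprss11b rests on 0 and 1 counts in the treated libraries and ran from −7.94 to −4.48 with a library left out. Akr1c18, beside the peak with both sequences, had 0.355 and 0.483 CPM in treated and 7.33 and 7.95 in control libraries, a log2 fold change of −4.19 (standard error 0.27). It belongs to a family of similar genes whose reads may be shared. Ifi44, an interferon-induced gene, had 0.650 and 0.483 against 9.95 and 9.79 CPM, a change of −4.11 (0.25). Eps8, which encodes an actin-capping protein that acts downstream of the EGF receptor, had 7.92 and 7.73 against 38.9 and 38.8 CPM, a change of −2.31 (0.13). For these 3 genes the treated libraries lay several-fold below both controls. Itga1, the collagen-binding integrin α1, had 2.45 and 2.48 against 10.3 and 10.1 CPM, a change of −2.04 (0.18). Arid1b, a subunit of the BAF chromatin remodeler, had 72.0 and 47.3 against 192 and 185 CPM, a change of −1.66 (0.23). Diaph2, a formin of the actin cytoskeleton, had 15.4 and 11.3 against 41.3 and 42.1 CPM, a change of −1.64 (0.19). The calls of Arid1b and Diaph2 were lost with library size as the only normalization, with log2 fold changes of −1.75 and −1.74. Other annotated genes overlap Itga1, Arid1b and Diaph2.

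The peak nearest to Eps8 lay at chr6:137688114-137688271, 38796 bp from its TSS, with a score of 50.6, and held the AP-1 sequence. Those nearest to Ifi44 (19441 bp from the TSS, score 54.1), Itga1 (86002 bp, score 55.2), Arid1b (92970 bp, score 54.6) and Diaph2 (63508 bp, score 58.7) held neither sequence, and 79.0% of the stretches of the peak near Itga1 were unique. The AP-1 peaks beside Tnr, Itgb4 and Eps8 are given because each is the nearest intergenic peak of a gene that changed.

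chr1:159440917-159441016 (Tnr): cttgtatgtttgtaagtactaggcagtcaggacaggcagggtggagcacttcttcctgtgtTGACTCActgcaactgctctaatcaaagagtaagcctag
chr11:115970463-115970562 (Itgb4): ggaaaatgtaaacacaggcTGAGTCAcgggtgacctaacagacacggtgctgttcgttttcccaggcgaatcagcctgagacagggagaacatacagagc
chr6:137688143-137688242 (Gm38915): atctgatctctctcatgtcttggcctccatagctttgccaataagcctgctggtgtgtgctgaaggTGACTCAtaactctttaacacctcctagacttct

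**Figure D5:**
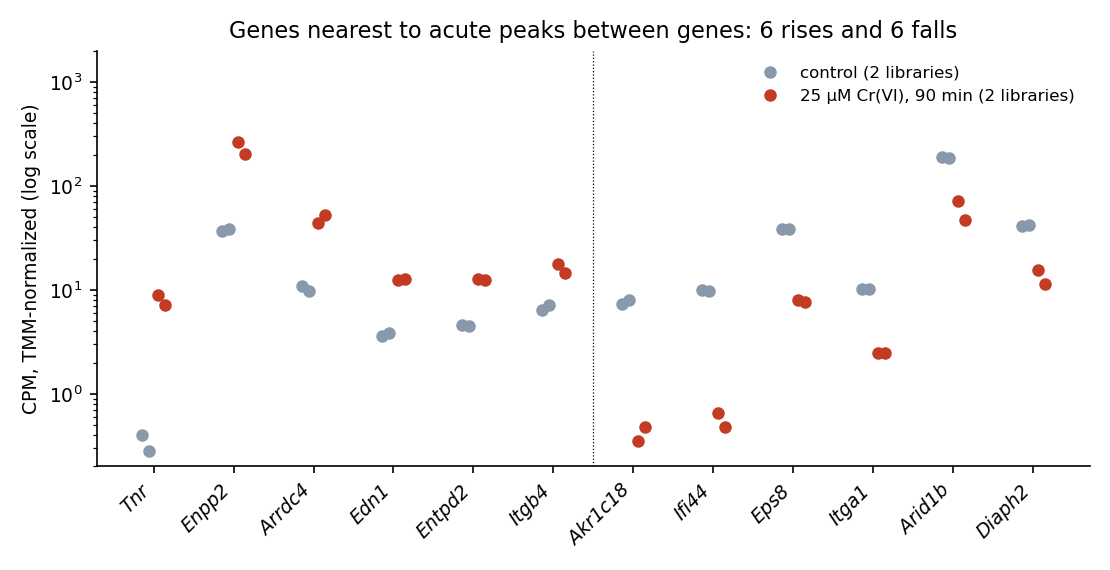
TMM-normalized CPM (log scale) in each of 2 control (grey) and 2 treated (red) libraries for the genes with the 6 largest rises (left of the dotted line) and the 6 largest falls (right) among called genes nearest to an acute intergenic peak whose mean log2 CPM reached 2. The treated and control libraries do not overlap for any of the 12 genes, a condition of the choice.

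Genes beside peaks named above for other reasons were read in the same fit. Snx9, beside the second widest peak, had 156 and 182 CPM in treated and 407 and 405 in control libraries (edgeR, adjusted p = 0.0319, log2 fold change −1.27 with a standard error of 0.14). Tmprss11b, beside an AP-1 peak with a high score, had 0 and 1 counts in treated and 33 and 30 in control libraries (adjusted p = 0.0408 from edgeR). Atp10a, the nearest gene of the count table to a peak shared with the chronic list but 212671 bp away, had 69.0 and 72.9 against 113 and 111 CPM, a log2 fold change of −0.66 (standard error 0.10, adjusted p = 0.0486 from edgeR). 4930461G14Rik, 1267 bp from a peak with the extended AP-1 form, had 8.33 and 7.63 against 15.8 and 16.6 CPM (edgeR, adjusted p = 0.0480). In all 4 of these genes the treated libraries lay below both controls. The calls of Snx9, Atp10a and 4930461G14Rik were lost without control replicate 1 and without control replicate 2, with log2 fold changes of −1.29 to −1.28, −0.69 to −0.66 and −1.08 to −1.01, and that of 4930461G14Rik also with library size as the only normalization (−1.13). The other genes nearest to the peaks of highest score did not pass the test or had too few counts: Susd6, for example, had 92.4 and 161 against 98.9 and 98.4 CPM, where the groups overlap. Usp16, beside an AP-1 peak, had 119 and 126 against 118 and 115 CPM, and Itga3, beside one of the widest peaks, 734 and 859 against 808 and 822 CPM. S100a7a, beside a CTCF core peak, had 29 and 60 counts in treated and 13 and 21 in control libraries, above both controls but with an adjusted p of 0.140 from edgeR. Tlr5, a receptor for bacterial flagellin beside a peak shared with the chronic list, had 41 and 4 counts in treated and 58 and 47 in control libraries, with treated replicate 2 far below the other libraries (adjusted p = 0.461 from edgeR). Dusp6, a phosphatase that inactivates ERK kinases, was the only gene of the count table read as nearest gene for 3 intergenic peaks. They lay 15280 to 61271 bp from its TSS, with scores from 56.5 to 59.0 and neither sequence. All 3 lay nearer to the TSS of Gm34574 or Gm34777, which were passed over. Dusp6 had 236 and 334 against 193 and 198 CPM, a log2 fold change of 0.54 (standard error 0.20, adjusted p = 0.160 from edgeR). A further 42 genes had 2 such peaks and 726 had 1.

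The genes for the factors that bind the sequences found were measured in the same libraries. None of the 7 AP-1 subunit genes passed edgeR's test, 1 had an unadjusted p under 0.05 and DESeq2 called 0. Of all tested genes 4.63% passed edgeR's test and 30.7% had an unadjusted p under 0.05 in it. DESeq2 called 10.6% of all genes with any count. With a treated library left out, where 77.6% and 67.2% of all tested genes were called, Fosl2 and Junb passed in both fits, Fos and Jun only without treated replicate 1, and Jund only without treated replicate 2. Fosb and Fosl1 passed in both with opposite signs, at 1.43 and 2.05 without treated replicate 1 and at −0.85 and −0.49 without treated replicate 2. The treated libraries differed from each other: Fosl1, which encodes FRA1, had 61.2 and 353 CPM in treated and 84.8 and 86.8 in control libraries, so that replicate 1 lay below and replicate 2 above both controls. Its log2 fold change with all libraries was 1.27. Fosb behaved alike, with 1.57 and 7.52 against 3.11 and 2.56 CPM, and Fos had 9.37 and 17.8 against 9.86 and 10.8 CPM. Junb had 137 and 255 against 114 and 112 CPM and Jun 21.4 and 43.1 against 19.3 and 19.3 CPM, so for both the treated libraries lay above the controls (log2 fold changes 0.80 and 0.74, standard errors 0.32 and 0.36, adjusted p = 0.183 and 0.240 from edgeR). With a library left out the change ran from 0.27 to 1.19 for Junb and from 0.15 to 1.17 for Jun. Fosl2 had 78.0 and 71.1 against 58.0 and 56.7 CPM (0.38, standard error 0.11, adjusted p = 0.115), and Jund 249 and 212 against 226 and 219 CPM (0.052, standard error 0.13, adjusted p = 0.814).

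Of 9 genes for related factors 7 were tested and none passed. An unadjusted p under 0.05 in edgeR's test was found for 3 of the 7 and for 30.7% of all tested genes. DESeq2, which called 10.6% of all genes with any count, called 3 (Nfe2l2, Mafk and Maff). These 3 and Mafg also passed with either treated library left out, Bach1 and Bach2 only without treated replicate 2 (0.30 and 0.64), and Atf3 passed with each of the 4 libraries left out in turn. Nfe2l2, which encodes NRF2, had 615 and 573 against 391 and 391 CPM, a log2 fold change of 0.60 (standard error 0.13, adjusted p = 0.0763 from edgeR), and its partner Maff 92.4 and 138 against 55.8 and 54.3 CPM (1.07, standard error 0.22, adjusted p = 0.0710). Atf3, a stress-induced partner of JUN proteins, had 33.9 and 155 against 24.4 and 24.1 CPM, and Mafk 91.2 and 303 against 82.6 and 84.6 CPM. In all 4 of these genes both treated libraries lay above both controls. Mafg had 42.5 and 38 against 53.9 and 50.1 CPM, Bach1 64.6 and 52.6 against 52.9 and 51.9 CPM, and Bach2 5.23 and 3.93 against 3.71 and 3.02 CPM. Bach2 thus also lay above both controls and Mafg below both, while the groups overlapped for Bach1. The share of all tested genes whose groups do not overlap is not given here, so these separations are descriptions only. Batf and Batf3 had at most 12 counts in any library and were not tested.

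Of the 7 genes for CTCF, its paralog and the cohesin ring, none passed edgeR's test. There 3 had an unadjusted p under 0.05, beside 30.7% of all tested genes. DESeq2 called 1 (Stag1), beside 10.6% of all genes with any count. Ctcfl, Smc3 and Stag1 passed with either treated library left out, Ctcf and Stag2 only without treated replicate 1, and Rad21 and Smc1a only without treated replicate 2. Ctcf had 85.6 and 63.7 against 85.8 and 83.7 CPM, a log2 fold change of −0.18 (standard error 0.17, adjusted p = 0.515 from edgeR), and Ctcfl, which encodes the paralog BORIS, 11.5 and 13.5 against 8.97 and 8.64 CPM (0.51, standard error 0.17, adjusted p = 0.144). The cohesin genes Rad21, Smc1a and Smc3 had log2 fold changes of 0.13, −0.016 and 0.39, and Stag1 and Stag2 −0.68 and −0.26. With a library left out the sign changed for Rad21 (−0.02 to 0.27), Smc1a (−0.09 to 0.06) and Stag2 (−0.67 to 0.06), but not for Smc3 (0.34 to 0.41) or Stag1 (−0.76 to −0.59). The treated libraries of Stag1 (23.9 and 21.2 CPM) lay below both controls (36.6 and 35.6 CPM), with an adjusted p of 0.0641.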

How the data were processed

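FAIRE-seq and RNA-seq of Hepa-1 cells were analysed from the files the authors deposited. The score of each peak was deposited by the authors, who aligned reads to mm10 with BWA and ran MACS at default settings on 1 treated library against 1 control library. This score is −log10 of the MACS p-value multiplied by 10. The counts per Entrez gene were deposited by the authors without normalization, after alignment to mm10 with TopHat, and their use of strand, annotation and counting tool are not given in the sources used here. The authors tested expression with DESeq. Versions of BWA, MACS, TopHat and DESeq are not given in the sources used here. Not analysed here were regions more open in controls than in treated cells and RNA-seq of the chronic regimen.

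Peaks were placed by their centre on RefSeq genes and transcripts of GRCm38.p6. Sequences were searched as exact letters on both strands of the central 100 bp, of windows 500 bp to either side, and of every 100 bp window between genes, whose shares were also weighted to the GC content of the peaks. Uniqueness was the share of a peak's 50 bp stretches that occur once in the genome, with the central 100 bp used for peaks under 50 bp. Counts were normalized by TMM, filtered by filterByExpr and tested with edgeR's quasi-likelihood test (2 against 2 libraries, two-sided, Benjamini-Hochberg adjustment over all 13619 genes, threshold 0.05). Of 23403 genes in the table, 23270 had a RefSeq TSS. CPM is given per library and log2 fold changes with standard errors. Steps were tested on simulated data.

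The peaks and gene lists were chosen with earlier results of these data known. Named genes were the 6 largest rises and 6 largest falls among called nearest genes whose mean log2 CPM reached 2 and whose treated and control libraries did not overlap, the genes of AP-1, related and CTCF factors, and genes beside named peaks. Named peaks were the 5 highest in score, the 5 widest, the 5 highest with each sequence, those with both or shared with the chronic list, and 3 on either side of the 1000 bp limit. Cell markers were lists for hepatocytes and for blood, endothelial and fibroblast cells. Alternatives were curated transcripts, whole peaks, other distances, scores of at least 60 or 100, other windows and sequences, unique peaks, library size only, no filter, DESeq2, a replicate block, each library left out and other rules for the nearest gene and for overlap. GENCODE genes and unmasked peaks were added after seeing the data. Software was Python 3.11.15 with pandas 2.3.3, numba 0.67.0, scipy 1.17.1, numpy 2.4.6 and matplotlib 3.10.9, and R 4.3.3 with DESeq2 1.42.0, edgeR 4.0.16 and limma 3.58.1.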

Additional observations from a re-analysis of the deposited data

How the results depend on the processing

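Of 51 alternatives tried for the 7 main values, 32 left the value within its interval or within 1.5 times. The number of intergenic peaks was 425 with scores of at least 60 and 17 with at least 100. The AP-1 share was 11.8% over whole peaks and 15.8% in the central 200 bp, which are longer windows, and kept within its interval otherwise (9.05% to 10.8%). The CTCF core share was 6.02% in the central 200 bp and 2.18% with the restricted consensus. The share of peaks with few unique stretches was 9.25% at a limit of 90% and 5.65% at scores of at least 60. Overlap with chronic peaks fell from 8 to 1 when 50% of both peaks had to be shared, which the wider chronic peaks seldom allow, and to 2 at scores of at least 60. The 38 called nearest genes became 24 with library size only (456 over all genes), 89 with DESeq2 (2000), 16 within 20000 bp, and 17 to 411 with a library left out, where the lone library is assumed to vary like the other group. These counts rest on different numbers of nearest genes: 484 with library size only, 654 with DESeq2 and 245 within 20000 bp. The shares called were 4.96%, 13.6% and 6.53%, where those of all genes were 3.35%, 10.6% and 4.63%. The median log2 fold change of nearest genes was −0.13 with library size only, where that of all genes was −0.11. With a replicate block 137 nearest genes (28.3%, 60 higher and 77 lower) and 2969 genes in all (21.8%) were called. Among these were Fosl1, Jun, Junb, Atf3, Mafk, Maff and Stag1, which were not called without it (log2 fold changes with the block 0.78, 0.66, 0.73, 1.59, 0.99, 1.04 and −0.68). Same-numbered libraries share only a number, and their deviations correlated at 0.0909 across genes. With a library left out the log2 fold change ran from −0.85 to 1.43 for Fosb, −0.49 to 2.05 for Fosl1 and −0.21 to 0.25 for Afp. The cause of these shifts was not tested. The median with a library left out ran from −0.11 to 0.014. Without read counts per peak, a peak's precision is unknown.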
